A study of Mus musculus with 34 samples.

Results

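Whole E18.5 mouse lungs in which Lin28A was expressed in the lung epithelium were compared with E18.5 control lungs by poly(A) RNA-seq. The comparison used 8 of the 34 libraries of the series, 3 labelled as expressing Lin28A in epithelial cells and 5 labelled as controls without Lin28A, and covered the 18319 of 21789 genes in the count table that passed a filter on low counts. The epithelial libraries carry the name Nkx2.1, a transcription factor of the lung epithelium that is also active in thyroid and forebrain, but the labels do not describe the alleles, the driver construct or the strain of any group. All pregnant females, those carrying control embryos included, drank doxycycline at 1 g/L from E0.5, so the comparison holds that exposure constant. A further 3 groups served for reference, which were 2 libraries from E18.5 lungs with Lin28A in mesenchymal cells (named Wt1), 5 from E18.5 lungs with global Lin28A (named Vasa) and 3 from E16.5 control lungs. The labels do not say whether libraries came from separate embryos or litters. The p-values set each difference against the spread between libraries within groups, estimated over all 34 libraries, and that spread may be partly technical.

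Lin28A is an RNA-binding protein of early embryonic cells that binds the precursors of the let-7 microRNAs and prevents their maturation. Mature let-7 rises during development and represses mRNAs that carry its sites, among them those of chromatin proteins, RNA-binding proteins, cyclins and members of the insulin signalling pathway. In the fetal lung the last days before birth are the saccular stage, when distal epithelial progenitors become flat alveolar type 1 cells and surfactant-producing type 2 cells, and when the mesenchyme and capillaries thin around them.

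The 9 mature let-7 family members found in the mouse RefSeq set (build GRCm38.p6) are printed 5′ to 3′, because their seed, bases 2 to 8 in capitals, defines the matches searched for in the mRNAs. All 9 carry the same seed and differ only outside it. Where a member has several gene copies, the position of 1 of them is given.
let-7a (chr13:48538239-48538260, minus strand): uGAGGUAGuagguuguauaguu
let-7b (chr15:85707325-85707346, plus strand): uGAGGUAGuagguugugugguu
let-7c (chr15:85706616-85706637, plus strand): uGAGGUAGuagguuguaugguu
let-7d (chr13:48536078-48536099, minus strand): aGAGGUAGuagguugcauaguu
let-7e (chr17:17830366-17830387, plus strand): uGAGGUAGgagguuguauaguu
let-7f (chr13:48537889-48537910, minus strand): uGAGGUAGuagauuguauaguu
let-7g (chr9:106178846-106178867, plus strand): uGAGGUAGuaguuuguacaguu
let-7i (chr10:122985698-122985719, minus strand): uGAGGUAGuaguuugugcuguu
miR-98 (chrX:151913229-151913250, plus strand): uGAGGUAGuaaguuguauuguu

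The Lin28a transcript was measured first, as a check of the labels. Levels are given as CPM, read counts scaled to a common library size with TMM factors. Lin28a was at 0.481, 0.361, 0.715, 1.79 and 2.88 CPM in control libraries 1 to 5 and 625, 1301 and 929 CPM in epithelial libraries 1 to 3. Every epithelial library was far above every control (log2 fold 9.40 ± 0.47 (SE), adjusted p = 7.5e-15), and library 2 held the most. Lin28b, the paralogue that let-7 also represses, stayed under 1 CPM in all 8 libraries and did not pass the test (log2 fold -1.07 ± 0.72 (SE), adjusted p = 0.27). Nkx2-1 was at 667, 633, 648, 898 and 626 CPM in the controls and 837, 807 and 926 CPM in the epithelial libraries, and control 4 lay within the epithelial range (log2 fold 0.30 ± 0.14 (SE), adjusted p = 0.094). Without control 4 its difference passed (log2 fold 0.41, adjusted p = 0.019). Wt1, whose name the mesenchymal libraries carry, was at 5.9 to 8.63 CPM in controls and 5.23 to 8.15 CPM in epithelial libraries (adjusted p = 0.84).

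Over all genes, 6077 of 18319 (33.2%) differed at an adjusted p under 0.05 in edgeR's quasi-likelihood test, 3291 higher (18%) and 2786 lower (15.2%) in epithelial lungs, with a median log2 fold of -0.02. Library totals were 7147301 and 9414480 counts in controls 1 and 2, 12641558 to 13590762 in controls 3 to 5 and 11738055 to 13012562 in the epithelial lungs. Controls 1 and 2 also stood apart in 3 kinds of transcript. Fos, an immediate early gene, was at 1221 and 1687 CPM there and at 22.6, 30.1 and 16 CPM in controls 3 to 5. The ribosomal RNA-like transcript CT010467.1 took 5.36% and 2.15% of their counts, 0.912% of those of control 5 and under 0.15% of those of the other 5 libraries. Albumin (Alb), a liver transcript, was at 588 CPM in control 1 and 12.7 CPM in control 2. Counts over gene lists are therefore also given against controls 3 to 5 alone, where 5584 of 18156 genes (30.8%) passed, 2843 higher (15.7%) and 2741 lower (15.1%); 4886 calls were shared in direction with those against all 5 controls and 1 was opposite. All 3 epithelial libraries lay above or below all 5 controls for 4473 genes. The calls rest on a spread estimated over all 34 libraries: with the 8 libraries alone 3468 genes passed, 1875 higher and 1593 lower, and without epithelial library 1 the number of lower genes was 1839.

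**Figure D1:**
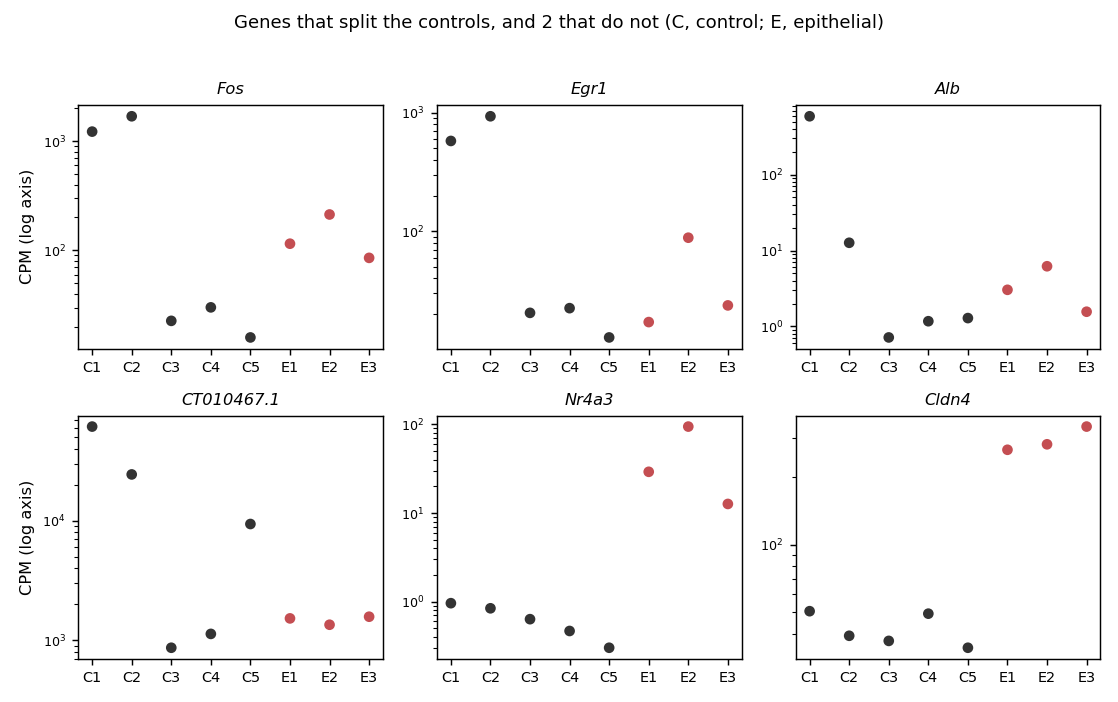
Level of 6 genes (CPM, log axis) in each E18.5 control (C1 to C5, black) and epithelial (E1 to E3, red) library. Fos and Egr1 are highest in C1 and C2, Alb peaks in C1 and CT010467.1 is high in C1, C2 and C5, whereas for Nr4a3 and Cldn4 the 5 controls lie together below the 3 epithelial libraries.

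Genes of the let-7 target list were higher in epithelial lungs: 22 of 50 passed upward and 1 downward, with a median log2 fold of 0.36 against -0.02 over all genes tested. Against controls 3 to 5 the counts were 22 and 0 and the median 0.29. Hic2, a transcriptional repressor, was at 12, 11.3, 10.6, 13.8 and 11.3 CPM in the controls and 35, 47.4 and 53.4 CPM in the epithelial libraries. The 2 ranges lay well apart (log2 fold 1.94 ± 0.15 (SE), adjusted p = 4.0e-11). Ccnd2, the gene of cyclin D2, was at 112, 114, 143, 127 and 127 CPM in controls and at 338, 390.1 and 453 CPM in epithelial lungs, again with no overlap (log2 fold 1.66 ± 0.10 (SE), adjusted p = 5.9e-13). Irs2, an adaptor of the insulin and insulin-like growth factor receptors, was at 65.2, 86.6, 58.8, 65.6 and 47.9 CPM in controls and 197, 253 and 168 CPM in epithelial lungs, where the lowest library was still above the highest control (log2 fold 1.67 ± 0.18 (SE), adjusted p = 4.2e-08).

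The classical embryonic targets Igf2bp1, Trim71 and Hmga2 moved less than Hic2, Ccnd2 and Irs2. Igf2bp1, an mRNA-binding protein of embryonic tissues, was at 35.8, 32.4, 30.2, 40.6 and 40.5 CPM in controls and 62, 88.4 and 81.1 CPM in epithelial libraries, without overlap (log2 fold 1.1 ± 0.16 (SE), adjusted p = 2.8e-06). Trim71, a conserved RNA-binding regulator of developmental timing, was at 4.05 to 7.49 CPM and 7.23 to 15.5 CPM, and epithelial library 1 lay within the control range (log2 fold 1.18 ± 0.21 (SE), adjusted p = 9.3e-05). Hmga2, a chromatin architectural protein, had log2 fold 0.57 (adjusted p = 0.0086; without epithelial library 3, adjusted p = 0.063). Thbs1 (thrombospondin 1) rose by 1.74 on the log2 scale, adjusted p = 4.6e-05, with controls from 128 to 582 CPM that reached into the epithelial range of 578 to 1515 CPM. Prtg, a receptor of early embryos, rested on epithelial library 2: its log2 fold of 1.19 (adjusted p = 0.011) was 0.64 without it (adjusted p = 0.21) and did not pass against controls 3 to 5 (adjusted p = 0.063). The 1 member called lower, the fibrillar collagen gene Col3a1 (log2 fold -0.26, adjusted p = 0.049), no longer passed without any one of 6 of the 8 libraries or against controls 3 to 5.

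Sites for let-7 were looked up in the longest annotated 3′ UTR of each gene (GENCODE M21, GRCm38), as CTACCTCA (8 bases), CTACCTC or TACCTCA (7 bases each). Only the transcript strand was searched, and a 7-base match inside an 8-base match was not counted again. Windows of 30 bases around an 8-base match, with the match in capitals, are shown for 5 targets called higher.
Hic2 (chr16:17262871-17262900, plus strand): cagggacccctcccCTACCTCAccttgcta
Hmga2 (chr10:120364216-120364245, minus strand): ccgacattcaatttCTACCTCAgcatcagt
Igf2bp1 (chr11:95961770-95961799, minus strand): ctgtgcgaagtaaaCTACCTCAaggtgtga
Irs2 (chr8:10986520-10986549, minus strand): aaactaccacagtcCTACCTCAgttcaggg
Trim71 (chr9:114512464-114512493, minus strand): acattgcctaagtcCTACCTCAgcttaaat
The 3′ UTR of Trim71 holds 6 matches in all, that of Hic2 5, that of Igf2bp1 5, that of Hmga2 7 and that of Irs2 1. In Ccnd2 the 3 matches are all of the form TACCTCA.

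Across the 15152 tested genes with an annotated 3′ UTR, those with a match were called higher more often than those without. Each gene was put in the class of its longest match, CTACCTC before TACCTCA. Of 12633 genes with no match 19.2% were higher and 15.5% lower. With TACCTCA the shares were 24.7% and 14% of 947 genes, with CTACCTC 26.0% and 16.4% of 1023, and with CTACCTCA 27.3% and 14.8% of 549. Among the 94 genes with 3 or more matches 39.4% were higher and 12.8% lower, with a median log2 fold of 0.20 against -0.01 for genes with no match. The 3′ UTRs of genes with a match were longer, with a median of 2439 bases for the 8-base match and 4777.5 bases for 3 or more matches against 965 bases for none. Among 3′ UTRs of 1000 to 3000 bases the differences were smaller: 21.4% of 4750 genes with no match, 23.8% of 248 with an 8-base match and 35% of 20 with 3 or more matches were higher, and 15.3%, 13.3% and 20% of them were lower. These shares are a description with no test, and a match is not a proven site. The let-7 target list overlaps these classes, and let-7 itself was not measured by poly(A) RNA-seq.

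**Figure D2:**
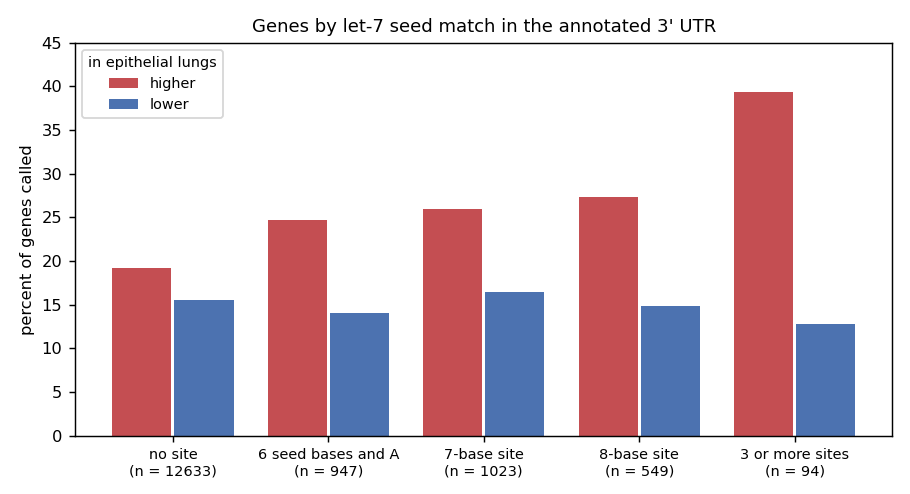
Percent of genes called higher (red) or lower (blue) in epithelial lungs, by let-7 match in the annotated 3′ UTR, with the number of genes in each class under its name. The share called higher goes from 19.2% with no match to 39.4% with 3 or more matches, and the share called lower stays between 12.8% and 16.4%. The last class overlaps the 3 before it, and 3′ UTR length differs between the classes.

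Genes of epithelial identity and junctions were higher: 16 of 27 listed genes passed upward and 0 downward, with a median log2 fold of 0.66 (14 upward and a median of 0.57 against controls 3 to 5). In whole-lung RNA, more cells of a type and more RNA per cell cannot be told apart, and the same holds for decreases. Cldn4, a tight junction claudin, was at 50.6, 39.3, 37.3, 49.3 and 34.7 CPM in controls and 265, 280.0 and 336 CPM in epithelial lungs. No library of either group came near the other (log2 fold 2.80 ± 0.13 (SE), adjusted p = 7.4e-16). The claudin gene Cldn6, typical of embryonic epithelia, was at 11.2, 6.99, 11.3, 35.6 and 30.2 CPM in controls, with controls 4 and 5 above the other 3, and at 66.4, 133 and 111 CPM in epithelial lungs, still without overlap (log2 fold 2.4 ± 0.29 (SE), adjusted p = 2.2e-07). Cldn7 (log2 fold 1.54) and the junction protein gene Ocln (1.52) rose with them. Foxa2, a forkhead factor of the lung epithelium, was at 52.3 to 58.6 CPM in controls and 121 to 138 CPM in epithelial lungs (log2 fold 1.21 ± 0.11 (SE), adjusted p = 2.3e-09), while Sox9, a factor of the distal tip, did not pass (log2 fold 0.39, adjusted p = 0.25).

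The simple epithelial keratins Krt8, Krt18 and Krt19, which are also members of the epithelial identity list above, rose. Krt18 was at 278, 306, 204, 183 and 264 CPM in controls and 794, 816 and 902 CPM in epithelial lungs (log2 fold 1.76 ± 0.22 (SE), adjusted p = 5.2e-07). Krt8, its partner, and Krt19 rose by 1.44 and 0.98 on the log2 scale, both without overlap of the groups. Over all keratin genes, a list chosen after values had been seen, 12 of 21 passed upward and 3 downward (12 and 2 against controls 3 to 5). The number downward was 1 without epithelial library 1 or control 4 and 0 without epithelial library 2. The largest rises were in keratins of stratified or hair-forming epithelia that are rare in lung: Krt13, at 0.53 to 0.723 CPM in controls, was at 8.12, 4.16 and 9.46 CPM in epithelial lungs (log2 fold 3.56 ± 0.55 (SE), adjusted p = 9.6e-06), and Krt87, at 0.156 to 0.482 CPM in controls, was at 8.21, 2.22 and 6.52 CPM. Krt4, Krt20, Krt34 and Krt88 also passed, from means under 1 CPM in controls to means between 1.23 and 5.55 CPM. Krt15, which marks basal and club cells, had log2 fold 1.72. The epidermal keratins Krt1 (log2 fold -1.49, adjusted p = 0.041) and Krt10 (-0.47, adjusted p = 0.019) were lower, but neither passed without epithelial library 1 or 2 or control 4, and Krt1 did not without control 2 or against controls 3 to 5 (adjusted p = 0.053). Of 16 claudin genes, a list chosen in the same way, 7 passed upward and 2 downward (7 and 3 against controls 3 to 5). Cldn4, Cldn6 and Cldn7, given above, are shared with the epithelial identity list. Cldn23 went from 0.556 to 1.33 CPM in controls to 10.9, 14.4 and 21.1 CPM in epithelial lungs. Cldn10 and Cldn15 were lower (log2 fold -0.76 and -1.21), and Cldn1 did not pass (adjusted p = 0.079).

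**Figure D3:**
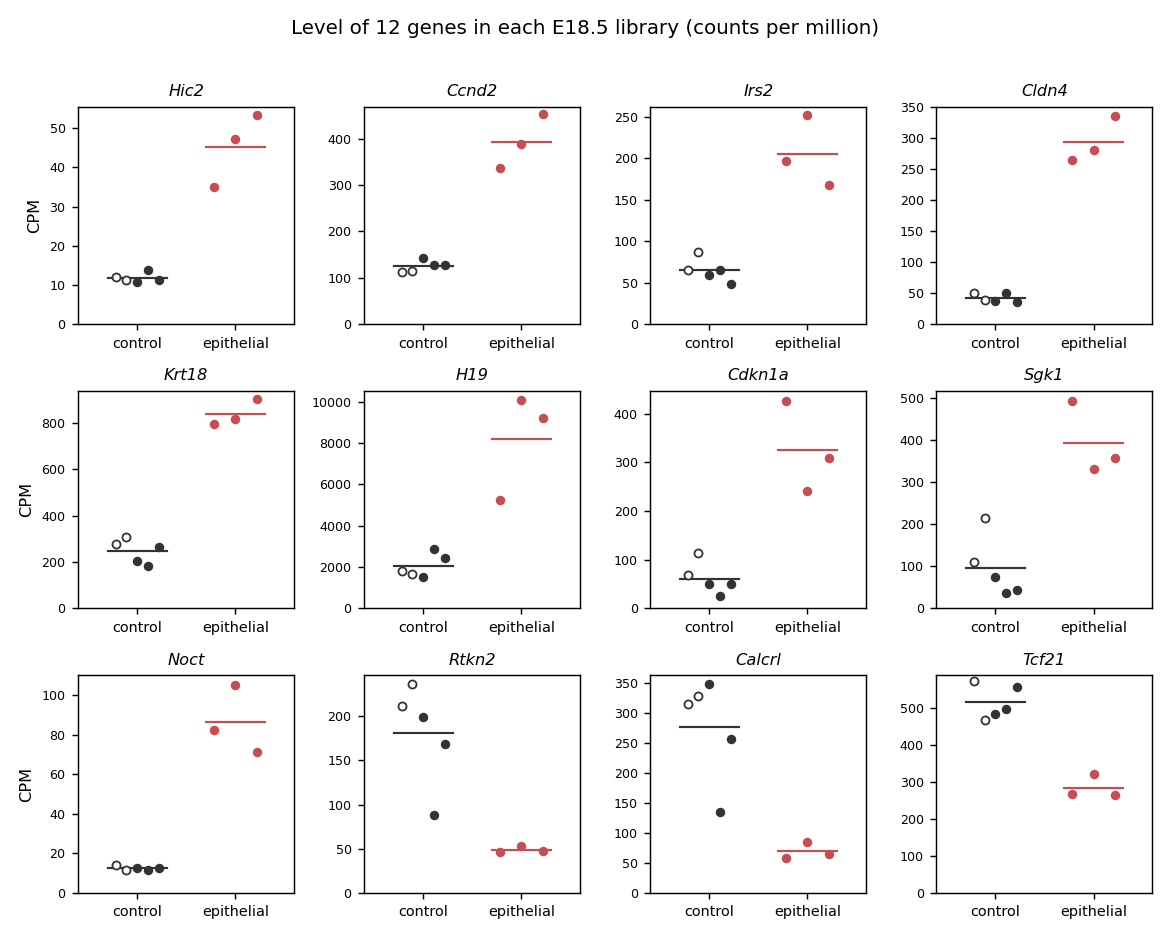
Level of 12 genes (CPM, linear axes from 0) in the 5 control and 3 epithelial E18.5 libraries, 1 point per library, with controls 1 and 2 as open points and group means as lines. Hic2, Ccnd2, Irs2, Cldn4, Krt18, H19, Cdkn1a, Sgk1 and Noct lie higher and Rtkn2, Calcrl and Tcf21 lower in all epithelial libraries than in all controls.

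The markers of differentiated alveolar type 2 cells mostly did not pass. Of 27 genes, 2 were higher and 2 lower, with a median log2 fold of -0.46 (3 and 2 with a median of -0.15 against controls 3 to 5). The number lower depended on the fit: it was 7 with the 8 libraries alone, 7 against controls 1 and 2, 4 without epithelial library 1 and 1 without library 3. Sftpc, the surfactant protein C gene, was at 14535, 16659, 12170.0, 10595 and 14185 CPM in controls and 10643, 7911 and 5847 CPM in epithelial lungs. Epithelial libraries 2 and 3 lay under every control and library 1 just above control 4 (log2 fold -0.74 ± 0.64 (SE), adjusted p = 0.39). Sftpb was likewise not called (log2 fold -0.27, adjusted p = 0.62). Those called lower were Abca3, the lipid transporter of lamellar bodies (log2 fold -0.78, adjusted p = 0.011; without epithelial library 3, adjusted p = 0.094), and Etv5, an ETS factor downstream of FGF signals (log2 fold -0.78 ± 0.15 (SE), adjusted p = 1.4e-04). Those called higher were Pgc, a protease precursor of fetal type 2 cells, at 12, 1.57, 4.53, 38.5 and 15.4 CPM in controls and 61.9, 46.9 and 117 CPM in epithelial lungs, and Ank3 (log2 fold 0.42).

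Alveolar type 1 markers moved in both directions. Of 23, 7 were higher and 7 lower, beside 18% and 15.2% over all genes (5 and 7 against controls 3 to 5). The number higher was 4 without epithelial library 1, without library 3, with the 8 libraries alone or against controls 1 and 2, where the number lower was 6 to 9. Rtkn2 was at 211, 237, 199, 88.6 and 168 CPM in controls and 46.4, 52.7 and 47.8 CPM in epithelial lungs. Control 4 was the lowest control and still above all 3 (log2 fold -1.88 ± 0.18 (SE), adjusted p = 3.4e-09). Akap5, a protein kinase A anchor, fell from 598 to 735 CPM in controls to 135, 386 and 235 CPM in epithelial lungs, and the paired type IV collagen genes Col4a3 and Col4a4 fell by 1.12 and 1.32 on the log2 scale. Pdpn (podoplanin) fell by 0.75 with groups that overlapped, and Ager, the most abundant marker, did not pass (log2 fold -0.51 ± 0.29 (SE), adjusted p = 0.18). In the other direction S100a6 was at 46.6 to 119 CPM in controls and 324, 237 and 390.5 CPM in epithelial lungs (log2 fold 1.85 ± 0.24 (SE), adjusted p = 6.7e-07). Lmo7 rose against all 5 controls (log2 fold 0.94, adjusted p = 0.023) but not against controls 3 to 5 (adjusted p = 0.059) or without epithelial library 1 or 3.

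Progenitor and airway genes showed no common direction. Against all 5 controls their counts lay near or below the shares of all genes tested, 18% higher and 15.2% lower. Of 19 distal tip genes 4 were higher and 3 lower (4 and 3 against controls 3 to 5), with 5 lower without epithelial library 2. Id2, an inhibitor of differentiation factors, rose (log2 fold 0.56, adjusted p = 0.0032), and Foxp2 rose with overlap (log2 fold 0.98). Bmp4 and Shh, made by tip epithelium, fell and are described with the ligands. Of 18 club cell genes 1 was higher, Krt15, and 2 were lower, Ces1d (not without epithelial library 3, adjusted p = 0.075) and Chad, the latter not against controls 3 to 5 (adjusted p = 0.12). The club cell counts against controls 3 to 5 were 1 and 1. The secretoglobin Scgb1a1 ranged from 211 to 1143 CPM among the controls alone and did not pass (adjusted p = 0.19), nor did Scgb3a2 (adjusted p = 0.07). Of 32 multiciliated cell genes 5 were higher, led by the ciliary transcription factor Rfx2 at 19.2 to 23 CPM in controls and 48.3, 43.8 and 52.8 CPM in epithelial lungs (log2 fold 1.21 ± 0.12 (SE), adjusted p = 3.8e-09). The 2 that were lower were Gmnc, an early switch gene of the lineage (log2 fold -2.11, adjusted p = 0.0039), and Ccdc39, which lost its call without epithelial library 1 or 3 or control 3, with a log2 fold of -0.69 that was -0.39 without the latter. The counts against controls 3 to 5 were again 5 and 2, and without epithelial library 2 the number lower was 4. Foxj1 and Mcidas did not pass (adjusted p = 0.87 and 0.42).

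In the lung fluid transport list 6 of 23 genes were higher and 3 lower, beside 18% and 15.2% over all genes. Against controls 3 to 5 the counts were 6 and 4. The number higher was 2 without epithelial library 1 and 1 against controls 1 and 2 alone. Scnn1a, the alpha subunit of the epithelial sodium channel that clears fluid at birth, was at 477, 499, 449, 307 and 312 CPM in controls and 869, 604 and 1025 CPM in epithelial lungs (log2 fold 1.03 ± 0.25 (SE), adjusted p = 0.0021). Its beta subunit Scnn1b did not pass (adjusted p = 0.24). Sgk1, a kinase that keeps the channel at the membrane, was at 111, 216, 74.5, 36.9 and 43.6 CPM in controls and 494, 330.3 and 358 CPM in epithelial lungs, so that even control 2, the highest, was lower than each of them (log2 fold 2.04 ± 0.30 (SE), adjusted p = 4.9e-06). Atp1b1, a sodium pump subunit, rose (log2 fold 1.13, adjusted p = 0.013; without epithelial library 1, adjusted p = 0.082). Lower were the water channel Aqp4, at 12.9 to 21.1 CPM in controls and 2.95, 8.33 and 4.87 CPM in epithelial lungs, and the chloride transporter Slc26a9 (log2 fold -1.38, adjusted p = 7.4e-05). Aqp5, the type 1 cell water channel, was called higher (log2 fold 0.83, adjusted p = 0.031) but lost the call when any one of 5 libraries was left out, and its log2 fold without epithelial library 1 was 0.45. Against controls 3 to 5, which were lower than controls 1 and 2 for this gene, it was 1.47 (adjusted p = 1.6e-04).

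Genes known to respond to glucocorticoids, the hormones that mature the lung before birth, were higher: 11 of 19 passed upward and 1 downward, with a median log2 fold of 1.24 (13 and 1 with a median of 1.43 against controls 3 to 5). Glul, glutamine synthetase, was at 386, 413, 415, 271 and 336 CPM in controls and 1278, 702 and 1113 CPM in epithelial lungs (log2 fold 1.5 ± 0.13 (SE), adjusted p = 4.3e-10). Ddit4, an inhibitor of mTORC1, was at 74.6, 97.8, 49.4, 40.6 and 41.1 CPM and 236, 198 and 112 CPM (log2 fold 1.59 ± 0.21 (SE), adjusted p = 6.9e-07). All epithelial libraries exceeded all controls for both. Pdk4, a kinase that limits pyruvate oxidation, and Zbtb16, a transcription factor, were uneven among the epithelial libraries: Pdk4 was at 108, 35 and 113 CPM against 18.3 to 34.4 in controls, and Zbtb16 at 332, 60.9 and 294 CPM against 57.7 to 96.1. In both cases library 2 was close to or within the control range. The 1 gene lower was Nr3c1, which encodes the glucocorticoid receptor itself (log2 fold -0.35, adjusted p = 0.0031), and Hsd11b1, the enzyme that regenerates active hormone in tissue, did not pass (adjusted p = 0.26).

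Targets of p53 were also mostly higher, 12 of 18 with 1 lower and a median log2 fold of 0.74 (14 of 17 and 1 against controls 3 to 5). Their summed level split the controls, at 2422 and 3282 CPM in controls 1 and 2 and 1071 to 1166 CPM in controls 3 to 5. In epithelial lungs the sum was 1961 to 2454 CPM. Cdkn1a, the cyclin-dependent kinase inhibitor p21, was at 67.7, 114, 50.1, 24.8 and 50.1 CPM in controls and 427, 242 and 309 CPM in epithelial lungs, where the lowest library held over 2 times the highest control (log2 fold 2.42 ± 0.26 (SE), adjusted p = 2.4e-08). Perp, a desmosomal protein, was at 40.8 to 56.5 CPM in controls and 215, 128 and 237 CPM in epithelial lungs (log2 fold 2.01 ± 0.33 (SE), adjusted p = 2.6e-05). Trp53inp1 rose by 1.81, Zmat3 by 0.93 and Mdm2, the ligase that degrades p53, by 0.43 on the log2 scale. Eda2r passed too (log2 fold 1.05, adjusted p = 0.041) but not without any one of 5 libraries, with a log2 fold of 0.48 without epithelial library 3. Plk2 was lower (log2 fold -0.99, and -0.62 against controls 3 to 5). Cdkn1a and Perp also respond to signals other than p53.

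The immediate early genes depended on which controls were used. Against all 5 controls 3 of 19 were higher and 1 lower, with a median log2 fold of -0.60. Against controls 3 to 5, 16 were higher and 0 lower, with a median of 1.23. Egr1 was at 577 and 931 CPM in controls 1 and 2, 20.5, 22.5 and 12.7 CPM in controls 3 to 5 and 17.1, 88.2 and 23.7 CPM in epithelial lungs, and its log2 fold turned from -2.85 (adjusted p = 0.014) to 1.2 (adjusted p = 0.019). The lower call of Egr1 was lost without epithelial library 1 or 3 and without control 2 (log2 fold -1.85). Fos turned from -2.11 (adjusted p = 0.066) to 2.58 (adjusted p = 2.7e-07), with epithelial values of 115, 213 and 85.4 CPM. Fosb and Nr4a1 were high in controls 1 and 2 and in epithelial library 2, at 139.8 and 885 CPM, and against controls 3 to 5 their log2 folds were 5.65 and 3.29. Besides Nr4a2 and Nr4a3, the higher call was Klf6 (log2 fold 0.57), which did not pass without any one of epithelial libraries 2 and 3 and controls 3 to 5, and was 0.91 without control 2. No direction is given for this list for that reason.

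Nr4a3, an orphan nuclear receptor of the family of Nr4a1, did not follow controls 1 and 2. It was at 0.963, 0.843, 0.636, 0.468 and 0.303 CPM in controls and 29.2, 94.5 and 12.7 CPM in epithelial lungs (log2 fold 6.22 ± 0.47 (SE), adjusted p = 4.8e-11), and all controls were under 1 CPM. Nr4a2 was at 10.6, 35.1, 5.96, 7.17 and 8.17 CPM and 49.6, 114 and 19.5 CPM, with epithelial library 3 below control 2 (log2 fold 2.21 ± 0.39 (SE), adjusted p = 6.8e-05; without epithelial library 2, log2 fold 1.39). Nr4a genes are textbook targets of cyclic AMP signalling, and in a list of such genes drawn up after values had been seen 14 of 19 were higher and 0 lower, with a median log2 fold of 1.49. It shares 5 genes with the immediate early list and also depended on which controls were used. Its summed level was 3417 and 5184 CPM in controls 1 and 2, 779 to 949 CPM in controls 3 to 5 and 1947 to 4126 CPM in epithelial lungs. Against controls 3 to 5, 17 were higher and 0 lower (median 2.58), against controls 1 and 2 12 and 4, and without epithelial library 2 13 and 3. Among its other members Noct, a rhythmic deadenylase-related protein, was at 14.3, 11.3, 12.6, 11.7 and 12.3 CPM in controls and 82.3, 105 and 71 CPM in epithelial lungs (log2 fold 2.79 ± 0.17 (SE), adjusted p = 4.8e-13). Dio2, which activates thyroid hormone, was at 0 to 0.78 CPM and 4.55, 10.7 and 0.643 CPM (log2 fold 3.65), and the phosphodiesterase gene Pde10a at 4.76 to 6.36 CPM and 49.4, 5.49 and 53.7 CPM (log2 fold 2.68). For Dio2 epithelial library 3 and for Pde10a library 2 lay within the control range.

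Clock genes moved in both directions, 5 higher and 4 lower of 17 (5 and 4 against controls 3 to 5). Over all genes the shares were 18% and 15.2%. Of the repressors Cry2 and Per1 rose, and Per3 (log2 fold -0.92) fell with the output genes Dbp and Hlf. Cry2 was at 73.9 to 93.7 CPM in controls and 267, 279.7 and 195 CPM in epithelial lungs (log2 fold 1.56 ± 0.10 (SE), adjusted p = 5.9e-13), and Per1, which glucocorticoids and cyclic AMP also induce, had log2 fold 1.25. Dbp, an output factor, was at 8.7 to 12.8 CPM in controls and 4.37, 5.23 and 5.05 CPM in epithelial lungs (log2 fold -1.21 ± 0.19 (SE), adjusted p = 1.6e-05), with Hlf (log2 fold -0.93) lower too. Clock and Arntl, which encode the activating pair, did not pass (adjusted p = 0.34 and 0.27).

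H19, an imprinted non-coding RNA of fetal tissues, was at 1793, 1654, 1531, 2849 and 2424 CPM in controls and 5264, 10095 and 9212 CPM in epithelial lungs (log2 fold 2.0 ± 0.18 (SE), adjusted p = 1.6e-09), with no overlap. Igf2, the growth factor gene of the same imprinted cluster, was at 31.6, 35.8, 34.3, 72.7 and 42.5 CPM in controls and 91.8, 163 and 137 CPM in epithelial lungs (log2 fold 1.58 ± 0.26 (SE), adjusted p = 2.0e-05). Over the imprinted growth list 4 of 15 were higher and 3 lower, beside 18% and 15.2% over all genes. Against controls 3 to 5 the counts were 4 and 1. The higher ones add Phlda2 (log2 fold 1.93) and Peg3 (0.90). The number lower was 1 without epithelial library 3 or control 5. Of the lower ones Mest had log2 fold -0.63, which was -0.38 without epithelial library 3, and Igf2r (-0.32, adjusted p = 0.021) did not pass against controls 3 to 5 (adjusted p = 0.0502) or without epithelial library 1 or 3 or control 5, and was -0.50 without epithelial library 2. Of 22 mitosis genes 1 was higher, Cdk1 (log2 fold 0.42, adjusted p = 0.04997), and 0 lower against all 5 controls (0 and 2 against controls 3 to 5). Cdk1 did not pass without any one of epithelial libraries 2 and 3 and controls 1 to 3, nor against controls 3 to 5 (adjusted p = 0.40), and was 0.64 without control 5. Against controls 1 and 2 alone, 13 of the mitosis genes and 21 of 22 S-phase genes were higher, so these counts rest on which controls are used; for S phase it was 3 against all 5, 2 against controls 3 to 5, 6 without control 4, 11 without control 5 and 1 without epithelial library 1. Mki67 was at 169, 143, 169, 291 and 309 CPM in controls and 186, 239 and 250.2 CPM in epithelial lungs, within the control range (adjusted p = 0.85), and Top2a likewise (adjusted p = 0.98). Myc passed (log2 fold 0.51, adjusted p = 0.011) but not without epithelial library 2 (log2 fold 0.25), and Mycn did not (adjusted p = 0.18).

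Of the largest rises among genes with a mean of at least 5 CPM in the higher group, Lin28a, Nr4a3 and Krt87 are described above. Next to Lin28a came Mucl3, a mucin-like gene, at 1.77, 3.49, 3.81, 5.61 and 5.45 CPM in controls and 663, 172 and 801 CPM in epithelial lungs (log2 fold 7.01 ± 0.36 (SE), adjusted p = 1.2e-14). Ramp3, a receptor activity-modifying protein, was at 0.642, 0.723, 1.11, 0.234 and 0.0757 CPM in controls and 32.4, 7.27 and 12.7 CPM in epithelial lungs (log2 fold 5.00 ± 0.49 (SE), adjusted p = 5.9e-09). Every epithelial library was above every control for both, although library 2 held less of each than libraries 1 and 3. Fam107a, an actin-associated stress gene, was at 1.25 to 2.29 CPM in controls and 47.6, 15.2 and 33.8 CPM in epithelial lungs (log2 fold 4.20). Prss22, a serine protease, and Hcrtr1, an orexin receptor, each under 1 CPM in all controls, reached 6.16, 2.04 and 8.17 CPM and 8.39, 2.48 and 7.53 CPM. Krtap17-1, a keratin-associated protein of hair, was at 0 to 0.602 CPM in controls and 6.25, 7.98 and 6.24 CPM in epithelial lungs, and the unnamed gene Gm43305 at 0 to 2.29 CPM and 21.1, 7.62 and 9.73 CPM, a difference that DESeq2 did not call.

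Most of the largest falls rested on 1 control library each. Alb, Ahsg, Fgb, Fga, Apoa1 and Afp, transcripts of liver, had log2 folds from -6.04 to -4.21, and 10 of 11 liver and yolk sac genes were called lower (6 by DESeq2, and 2, 4 and 1 by edgeR without epithelial libraries 1, 2 and 3 in turn). Their summed level was 1239 CPM in control 1, 146 CPM in control 2 and 35.7 to 68 CPM in controls 3 to 5, against 33.5 to 60.4 CPM in epithelial lungs. Without control 1 none of the 6 passed, with log2 folds from -1.67 (Apoa1) to 0.43 (Fga), 5 of them also did not pass without epithelial library 1 or 3, and against controls 3 to 5 the median log2 fold of the 11 genes was 1.57. Nppa, an atrial heart gene, was at 107 CPM in control 3 and under 1 CPM in every other library, and its log2 fold of -6.15 was 1.22 without control 3, with no call without any one of the epithelial libraries either. The non-coding RNA Rn7sk was at 198, 36.4, 2.15, 2.18 and 18.4 CPM in controls and 1.61 to 2.57 CPM in epithelial lungs, in the order of CT010467.1, and did not pass without control 1 (log2 fold -2.78), without epithelial library 1 or against controls 3 to 5. Gm15772 was at 58.6, 113, 82.2, 52.5 and 0.227 CPM in controls and under 1 CPM in control 5 and all epithelial libraries, and Gm3375 at 6.9, 6.87, 6.12, 9.98 and 8.02 CPM in controls and 0.268, 0.354 and 0.459 CPM in epithelial lungs (log2 fold -4.37 ± 0.47 (SE), adjusted p = 2.7e-08). Gm15772 and Gm3375 are predicted genes without a described role, and of the 10 falls Gm3375 is the one whose groups did not overlap.

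Among signals from the epithelium to the mesenchyme 6 of 23 listed ligands were higher and 7 lower (8 and 7 against controls 3 to 5). Over all genes the shares were 18% and 15.2%. Bmp4 was at 65.2, 87, 73.1, 102 and 80.2 CPM in controls and 29.3, 42.2 and 29.8 CPM in epithelial lungs (log2 fold -1.27 ± 0.15 (SE), adjusted p = 1.3e-07). Shh, the hedgehog ligand of the lung epithelium, was at 82, 80.7, 92.7, 121 and 91.3 CPM and 39.9, 72.5 and 60.1 CPM (log2 fold -0.70 ± 0.17 (SE), adjusted p = 0.0021). For both the highest epithelial library was below the lowest control. Fgf9, made by epithelium and mesothelium, fell from 3.85 to 7.27 CPM in controls to 0.536, 2.39 and 0.551 CPM (log2 fold -2.15, and -3.24 without epithelial library 2), and Wnt7b did not pass (adjusted p = 0.26). In contrast several EGF-family ligands were higher. Ereg (epiregulin) was at 0.16 to 0.908 CPM in controls and 3.21, 10.2 and 6.24 CPM in epithelial lungs (log2 fold 3.48 ± 0.44 (SE), adjusted p = 4.5e-07), and Tgfa at 9.47 to 13.3 CPM and 31.1, 23 and 38.4 CPM (log2 fold 1.41 ± 0.14 (SE), adjusted p = 7.1e-09). Nrg1 was at 1.1 to 2.62 CPM in controls and 10.8, 1.42 and 11.4 CPM in epithelial lungs, where library 2 was no higher than the controls (log2 fold 2.11). Areg rested on epithelial library 2 (log2 fold 1.38, and 0.51 without it, adjusted p = 0.38). Erbb3, a receptor gene of the same family, rose (log2 fold 1.11) and the ligand gene Nrg2 fell by 1.32. Over this family, a list chosen after values had been seen, 6 of 13 were higher and 1 lower (7 and 1 against controls 3 to 5), and Egf itself did not pass (adjusted p = 0.31).

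Genes of the mesenchymal lists were more often lower than higher. Lin28A was labelled as epithelial in these lungs, but whole-lung RNA does not show which cells changed. Of 23 signalling receptors and targets 10 were lower and 1 higher, with a median log2 fold of -0.46 (11 and 2 against controls 3 to 5), and without epithelial library 3 6 were lower. Gli1, a transcription factor that hedgehog signals induce, was at 37.9, 44.7, 37.4, 73.7 and 49.7 CPM in controls and 23.5, 33.1 and 23.9 CPM in epithelial lungs (log2 fold -0.87 ± 0.17 (SE), adjusted p = 3.0e-04). The hedgehog receptor gene Ptch1 also fell (log2 fold -0.49, adjusted p = 0.0049; without epithelial library 1, adjusted p = 0.073). Tcf21, a transcription factor of lung fibroblasts, was at 572, 466, 484, 498 and 555 CPM in controls and 268, 321 and 264 CPM in epithelial lungs (log2 fold -0.86 ± 0.10 (SE), adjusted p = 2.2e-07). Fgf7, a growth factor for the epithelium, was at 24.4 to 28.6 CPM in controls and 11.2, 17.5 and 11.8 CPM in epithelial lungs, and Wnt2 had log2 fold -0.84 with overlapping groups. Fgf10 (log2 fold -0.64) was -1.04 without epithelial library 2 and -0.39 without library 3, where it did not pass. Noggin (Nog), the BMP antagonist, was the 1 that rose, from 1.12 to 3.67 CPM in controls to 14.8, 7.27 and 9.46 CPM (log2 fold 2.20 ± 0.26 (SE), adjusted p = 1.8e-07). Of 19 fibroblast and lipofibroblast genes 11 were lower and 0 higher (8 and 0 against controls 3 to 5), and 7 were lower without epithelial library 3. They included Gyg, which primes glycogen (log2 fold -0.73), and the lipid droplet gene Plin2 (-0.51), while Inmt and Lpl lost their calls against controls 3 to 5 (adjusted p = 0.14 and 0.13). Ces1d, also called lower, is shared with the club cell list. Smooth muscle (1 higher, 4 lower of 16) and matrix genes (0 and 2 of 22) had fewer calls. The smooth muscle counts against controls 3 to 5 were 1 and 4, and neither matrix gene kept its call in edgeR's test there or without epithelial library 1, epithelial library 3, control 1 or control 2.

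Hox genes, which set position along the body axis and are expressed mainly in lung mesenchyme, were lower as a group: 10 of 23 passed downward and 0 upward, with a median log2 fold of -0.65 (9 and 0 against controls 3 to 5), and 6 passed downward with the 8 libraries alone. Hoxb4 was at 37.1, 37.5, 31.9, 37.7 and 34.9 CPM in controls and 19.2, 15.9 and 18 CPM in epithelial lungs (log2 fold -1.02 ± 0.13 (SE), adjusted p = 4.5e-07). Hoxa3, Hoxa4 and Hoxb3 fell by 0.69, 0.86 and 0.75 on the log2 scale without overlap. Hoxa6 (log2 fold -1.17) was low in all libraries, and Hoxb6 (-0.81) lost its call without epithelial library 3. Hoxa2, near the front of its cluster, did not pass (adjusted p = 0.057).

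The pan-endothelial genes Pecam1 and Cdh5 did not pass the test. Pecam1 was at 596 to 851 CPM in controls and 616 to 886 CPM in epithelial lungs (log2 fold -0.01 ± 0.11, adjusted p = 0.96), and Cdh5 likewise (adjusted p = 0.72). Within the endothelial list 1 of 20 was higher and 3 were lower (3 and 3 against controls 3 to 5), beside 18% higher and 15.2% lower over all genes. The number lower was 5 without epithelial library 1, and the number higher 2 without control 2. Vegfa, the ligand made by alveolar epithelium and named here after its values were seen, was at 1160.0, 1517, 1187, 935 and 879 CPM in controls and 584, 747 and 528 CPM in epithelial lungs (log2 fold -0.87 ± 0.14 (SE), adjusted p = 2.4e-05). Kdr, the main VEGF receptor, was at 450.0, 529, 476, 393 and 393 CPM in controls and 239.8, 265 and 289.6 CPM in epithelial lungs (log2 fold -0.76 ± 0.09 (SE), adjusted p = 2.7e-07). Calcrl, the receptor for adrenomedullin, was at 314, 328, 347, 134 and 256 CPM and 58.7, 85.2 and 64 CPM (log2 fold -1.99 ± 0.23 (SE), adjusted p = 1.5e-07), and Sox17, an arterial factor, had log2 fold -1.0 (-0.59 against controls 3 to 5). Eng was the 1 higher (log2 fold 0.54; without epithelial library 1, 0.35, adjusted p = 0.13). Calcrl pairs with a RAMP subunit to bind its ligands, and of the subunits Ramp3 rose, as given above, while Ramp1 did not pass (adjusted p = 0.053). Ackr3, a scavenger receptor for the same peptide, rose by 0.95. Whether Calcrl and Ramp3 changed in the same cells was not tested.

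Of 24 leukocyte and macrophage genes 5 were lower and 1 higher (5 and 1 against controls 3 to 5), beside 15.2% lower over all genes. Without control 4 the number lower was 8. Cx3cr1, the fractalkine receptor of fetal macrophages, was at 13, 16, 26.7, 21.9 and 19 CPM in controls and 1.52, 8.15 and 3.12 CPM in epithelial lungs (log2 fold -2.19 ± 0.30 (SE), adjusted p = 1.5e-06). Adgre1, which encodes F4/80, had log2 fold -0.66, and Ear2, of eosinophil-associated ribonucleases, -1.19. Csf1r (log2 fold -0.35) and the mannose receptor gene Mrc1 (-0.36) fell less, and neither passed without epithelial library 1 (adjusted p = 0.057 and 0.14). Ptprc, the pan-leukocyte gene, did not pass (adjusted p = 0.27), and Cd14 rose (log2 fold 1.11, and 1.79 against controls 3 to 5).

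**Figure D4:**
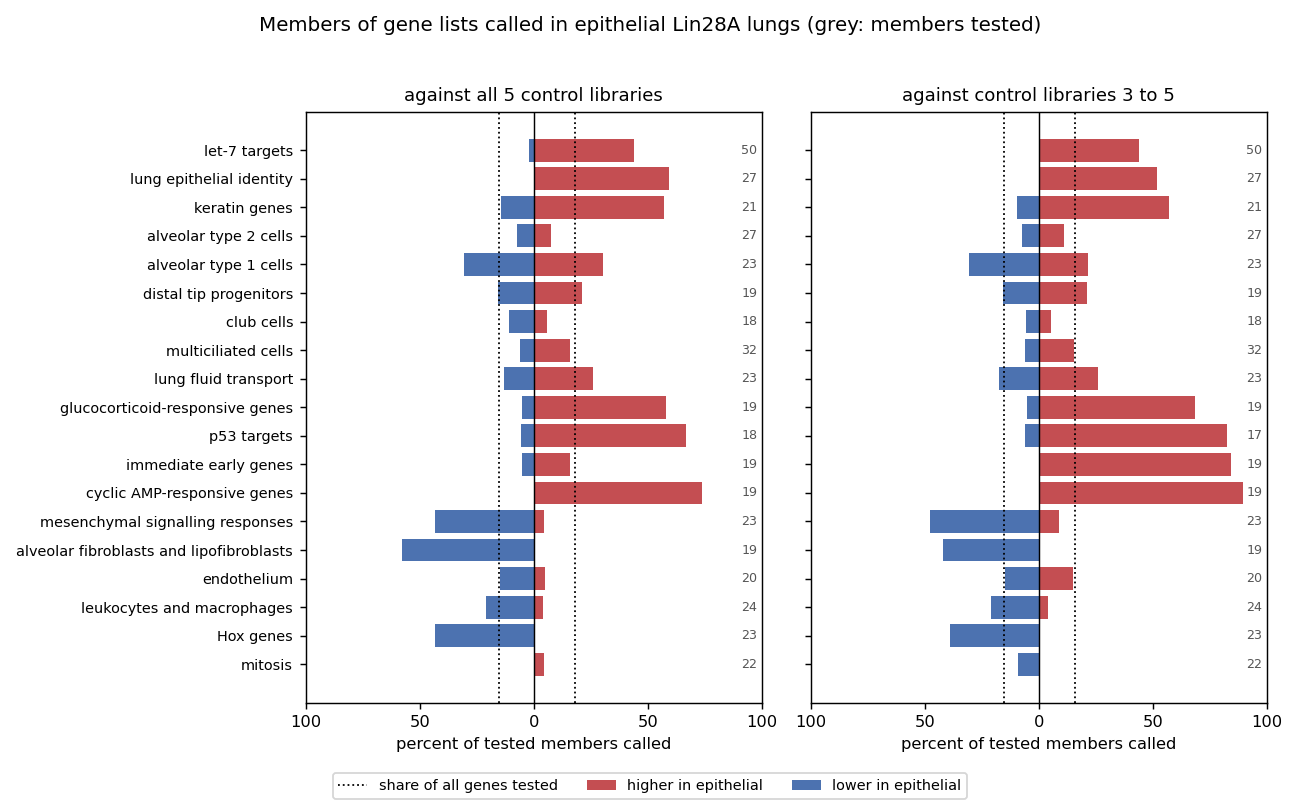
Percent of tested list members called higher (red, to the right) or lower (blue, to the left) in epithelial lungs, against all 5 controls on the left panel and controls 3 to 5 on the right, with the number tested in grey. Dotted lines mark the share of all genes called, 18% and 15.2% on the left and 15.7% and 15.1% on the right. The immediate early genes differ most between the panels, with 3 higher on the left and 16 on the right. Keratin and cyclic AMP-responsive genes were chosen after values had been seen.

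The epithelial lungs were next compared directly with E18.5 lungs whose Lin28A was mesenchymal or global, in the same model. Against mesenchymal lungs 9771 genes (53.3%) differed, 4853 higher (26.5%) and 4918 lower (26.8%), and against global lungs 11568 (63.1%), 5826 higher (31.8%) and 5742 lower (31.3%). Differentiated epithelial genes were far higher in the epithelial group: 23 of 27 type 2 genes and 21 of 23 type 1 genes against mesenchymal lungs, and 26 and 21 against global lungs. Ager had a mean of 1548 ± 232 CPM (SD, n = 3) in epithelial lungs, 128 ± 98.5 CPM (n = 2) in mesenchymal lungs and 88 ± 32.8 CPM (n = 5) in global lungs, with log2 folds of 3.59 ± 0.42 (adjusted p = 4.0e-08) and 4.13 ± 0.29 (adjusted p = 1.3e-12). Aqp5, at 297 ± 132 CPM in epithelial lungs, was at 0.488 ± 0.47 CPM and 0.306 ± 0.131 CPM in the others. Cell cycle genes were lower: 22 of 22 mitosis genes and 22 of 22 S-phase genes against mesenchymal lungs, and 22 and 22 against global lungs. Mki67 was at 225 ± 34.1 CPM in epithelial, 611 ± 16.3 CPM in mesenchymal and 602 ± 54.3 CPM in global lungs.

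The let-7 targets were lower in epithelial lungs than in either of those groups more often than higher, 24 against 9 of 50 for the mesenchymal and 30 against 8 for the global group. Lin28a itself was higher than in global lungs and did not pass against mesenchymal lungs: its mean was 952 ± 339 CPM in epithelial, 481 ± 97.9 CPM in mesenchymal and 531 ± 123 CPM in global lungs (adjusted p = 0.054 against mesenchymal and 0.026 against global). Hmga2 was at 27.1 ± 4.26 CPM in epithelial lungs and at 153 ± 49.8 CPM and 212 ± 28.9 CPM in the others (log2 fold -2.49 and -2.96). Ccnd2 passed against neither (adjusted p = 0.49 and 0.95), and Irs2 was higher than in both (log2 fold 2.82 and 2.52). Several genes that rose against controls were also far above both groups. Mucl3 had means of 4.16 ± 1.6 CPM in mesenchymal and 3.38 ± 1.18 CPM in global lungs against 545 ± 330.5 CPM (log2 fold 7.03 and 7.29, both with adjusted p at or under 3.8e-11). Cldn4, Sgk1, Cdkn1a, Glul, Cry2 and Noct likewise exceeded both, by 1.66 (Cldn4 against global) to 4.83 (Cdkn1a against mesenchymal) on the log2 scale. Calcrl, low against controls, did not pass against mesenchymal (adjusted p = 0.89) or global lungs (adjusted p = 0.082).

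Above mesenchymal lungs the 5 largest rises were Gm43305, Krtap17-1, Aqp5, Serpina3n and Scgb3a1, and above global lungs they were Aqp5, Nr4a3, Mucl3, C6 and Serpinb9b. Serpina3n, an acute-phase protease inhibitor, was uneven at 29.9, 1.06 and 10.1 CPM in epithelial lungs, and the secretoglobin gene Scgb3a1 ran from 2.23 to 139.7 CPM. C6, a complement component, was at 22.5, 20.5 and 23.1 CPM in epithelial lungs, within the control range, and at 0.184 ± 0.173 CPM in global lungs. Below mesenchymal lungs lay Gm15772, Gm3375, Epha8, Kif12 and Gm10320, and below global lungs Gm15772, Gm14094, Gm8420, Xlr3a and Gm3375. Kif12, a kinesin gene, was at 0.536, 1.68 and 2.2 CPM in epithelial lungs, 0.0795 to 0.53 CPM in controls, 31.6 CPM on average in mesenchymal and 37.7 ± 10.1 CPM in global lungs. Epha8, an ephrin receptor of the nervous system, was at 6.14 ± 1.09 CPM in mesenchymal lungs and under 1 CPM in every epithelial and control library.

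**Figure D5:**
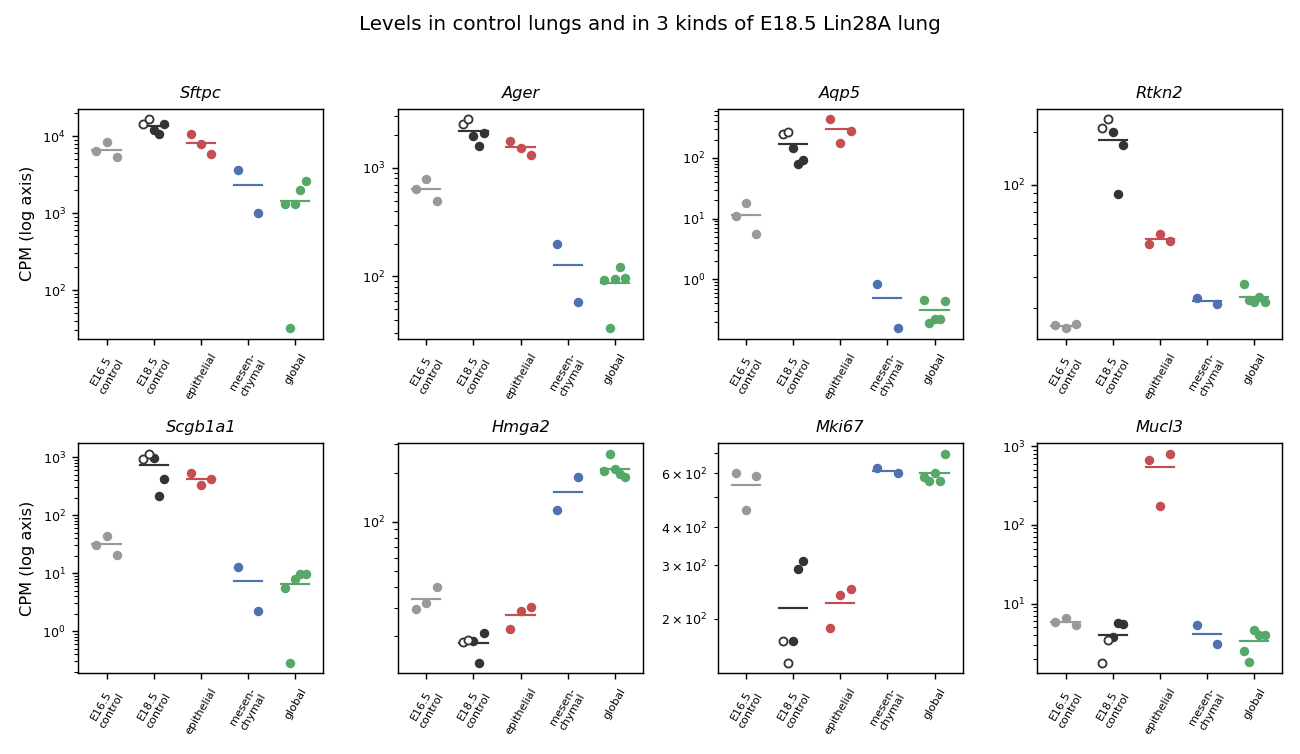
Level of 8 genes (CPM, log axes) in single libraries of E16.5 control (grey), E18.5 control (black, controls 1 and 2 open), epithelial (red), mesenchymal (blue) and global (green) lungs, with group means as lines. Sftpc, Ager, Aqp5 and Scgb1a1 of epithelial lungs lie above the other Lin28A lungs. Of these, Ager, Aqp5 and Scgb1a1 lie nearer the E18.5 than the E16.5 controls, and Sftpc nearer the E16.5 controls. Rtkn2 lies between the E18.5 controls and the other Lin28A lungs, Hmga2 and Mki67 lie near the controls, and Mucl3 is high in epithelial lungs alone. In 1 of the 5 global libraries Sftpc, Ager and Scgb1a1 are far below the other 4.

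Against E16.5 control lungs, which share no library with the E18.5 controls, 7956 genes (43.4%) differed, 3867 higher (21.1%) and 4089 lower (22.3%). Age and Lin28A differ together there, so the values are given as a position between 2 stages. Of the type 1 genes 13 of 23 were above the E16.5 level and 1 below it, and of the type 2 genes 12 and 2 of 27. Rtkn2 had a mean of 15.9 ± 0.476 CPM at E16.5 (n = 3), 49 ± 3.32 CPM in E18.5 epithelial lungs and 181 ± 57.1 CPM in E18.5 controls (n = 5), and differed from both (adjusted p = 1.9e-07 and 3.4e-09). Akap5 and Col4a4 did not pass against E16.5 (adjusted p = 0.19 and 0.32), nor did Sftpc (6681 ± 1458 CPM at E16.5, adjusted p = 0.77). Aqp5, Scgb1a1 and Sgk1 were above their E16.5 levels (log2 fold 4.71, 3.75 and 3.25). Igf2 and Cldn6 did not pass against E16.5 either, with means of 128 ± 38.6 and 103 ± 24.9 CPM at E16.5 against 131 ± 36 and 103 ± 33.7 CPM (adjusted p = 0.94 and 0.98), and 22 of 22 mitosis genes were below theirs. The 5 largest rises over E16.5 were Lin28a, Scgb3a1, Reg3g, Nr4a3 and Muc5b. Scgb3a1, Reg3g and Muc5b, secreted airway genes, were highest in epithelial library 3, with 2.23, 10.4 and 139.7 CPM, 0.446, 4.25 and 75.8 CPM and 3.12, 5.49 and 183 CPM in libraries 1 to 3, and reached 117, 49.4 and 72 CPM among E18.5 controls. Without epithelial library 3 Reg3g did not pass against E16.5 (adjusted p = 0.06). The 5 largest falls, Gm15772, Gm8420, Gm1821, Gm3375 and Pianp, are 4 predicted genes and a neuronal membrane protein gene, Pianp, which did not pass without epithelial library 1 or 3 or E16.5 control 2 or 3.

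Markers of other tissues were checked in the same libraries. Erythroid genes summed to 24601 CPM in epithelial library 1, 3599 and 4476 CPM in epithelial libraries 2 and 3 and 4449 to 9943 CPM in controls, so that library 1 stood above the other 7. Of 16 erythroid genes 0 were called by edgeR, 0 by DESeq2 and 0 at an unadjusted p under 0.05 by edgeR, and without epithelial library 2 2 were higher. The part of red cell RNA in the values of epithelial library 1 was not tested. Cardiomyocyte genes summed to 331 to 1331 CPM in controls and 228 to 442 CPM in epithelial lungs, and the 1 of 18 called was Nppa. Cardiomyocyte transcripts were thus present in both groups of libraries, and neither their source nor their part in the results was tested. The liver, ribosomal RNA-like and immediate early transcripts that mark controls 1 and 2 moved with those 2 libraries. All 7 ribosomal RNA-like and small nuclear transcripts tested, a list chosen after values had been seen, were called lower against all 5 controls with a median log2 fold of -3.52, and against controls 3 to 5 the median was -1.14. Of these genes 2 passed without control 1 and 3 without epithelial library 1. Against controls 3 to 5 alone the leading counts of let-7 targets, epithelial identity, glucocorticoid-responsive genes, p53 targets, Hox genes and mesenchymal signalling genes each stayed within 2 genes of those against all 5. That check leaves out controls 1 and 2, where the summed level of the p53 targets was within or above the epithelial range.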

How the data were processed

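Total RNA of whole embryonic lungs was sequenced after poly(A) selection, per the labels' protocols. Raw read counts per gene were deposited by the authors, whose processing notes name bcl2fastq 2.17.1.14, cutadapt, STAR 2.4.2a, HTSeq 0.6.1p1, DESeq2 1.10.1 and build GRCm38. Whether counting used strand is not given in the sources used here, so overlapping genes may share reads. Libraries were grouped by their labels; the mesenchymal column named Wt2 was matched to the sample titled Wt1 with the same number.

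Counts were fitted with edgeR 4.0.16 (R 4.3.3): TMM factors, edgeR's expression filter (18319 genes kept), 1 mean for each of 10 groups over 34 libraries, 24 residual degrees of freedom, quasi-likelihood tests and Benjamini-Hochberg adjustment over all genes tested, with calls at an adjusted p under 0.05. Levels are CPM, counts scaled by the TMM-adjusted library size, and fold changes are log2 of epithelial over control. Each SE was derived from the test, as the absolute log2 fold divided by the square root of its quasi-likelihood F statistic. It therefore rests on the spread over all libraries in the model. The script was tested on simulated counts.

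Members and gene lists were chosen with earlier results of these data known. Named genes are the first 2 measured members of each list, up to 6 called members with the largest fold changes and a mean of at least 1 CPM, and the 10 (5 in direct comparisons) largest rises and falls with a mean of at least 5 CPM; others were chosen after their values were seen, and a few named by the rule are not reported here. Alternatives were DESeq2 1.42.0, its size factors in edgeR, no filter, the 2 groups alone, a replicate block, control subsets and each library left out.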

Additional observations from a re-analysis of the deposited data

Results flagged for a closer look

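Among the 5 controls, 1 library lay far from the other 4 for 10 of 186 genes screened by Dixon's test on log2 CPM. Chance flags about 1 in 20 such groups. Control 3 was high for Aqp4 (21.1 CPM, the others 12.9 to 14) and Nppa (107 CPM, the others 0 to 0.234) and low for Gyg (524 CPM, the others 650.2 to 686) and Uchl1 (5.17 CPM, the others 7.83 to 8.63). Control 4 was high for Nkx2-1 (898 CPM, the others 626 to 667) and low for Hmga2 (13.8 CPM, the others 18.6 to 20.9). Control 5 was high for Id2 (192 CPM, the others 138 to 149.7) and low for Gm15772 (0.227 CPM, the others 52.5 to 113). Control 1 was high for Fgf7 (28.6 CPM, the others 24.4 to 25.4) and low for Phlda2 (0.160 CPM, the others 1.11 to 1.45). The epithelial group of 3 libraries was too small for this test.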

How the results depend on the processing

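The number of genes called between epithelial and control lungs was 6077, and between 5322 and 6149 with DESeq2, DESeq2 size factors, no filter, the replicate block or either control subset. Fitted on the 8 libraries alone it was 3468 (1875 higher, 1593 lower). Leaving out each library in turn gave 4334 to 6693 in all, 2495 to 3532 higher and 1839 to 3161 lower. Against mesenchymal lungs the same gave 6834 to 9758 calls, with the lone remaining mesenchymal library assumed to vary like the other groups, against global lungs 10254 to 11358 and against E16.5 controls 6391 to 8153.

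Against controls 3 to 5 the sign turned for Afp (4.38), Ahsg (0.96), Alb (1.75), Apoa1 (1.40), Cdh5 (0.083), Egr1 (1.2), Fga (5.45), Fgb (2.96), Fos (2.58), Fosb (5.65), Hspa1a (0.90), Hspa1b (0.35), Mki67 (-0.20), Nr4a1 (3.29), Pecam1 (0.096) and Top2a (-0.28), all log2 folds. Against controls 1 and 2 it turned for Foxj1 (-0.032), Klf6 (-0.073) and Nppa (1.97). Top2a was -0.025 with no filter and -0.006 in the 8-library fit, and Wt1 was 0.057 with the replicate block. With 1 library left out, signs turned for Afp (-5.22 to 0.28), Cdh5 (-0.323 to 0.014), Fga (-5.25 to 0.435), Fgb (-6.18 to 0.075), Foxj1 (-0.07 to 0.311), Mki67 (-0.062 to 0.22), Nppa (-6.85 to 1.22), Nr4a1 (-2.82 to 0.69), Pecam1 (-0.191 to 0.089), Top2a (-0.19 to 0.24) and Wt1 (-0.232 to 0.074). The cause was not tested.

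Of 155 named genes called, 38 lost the call without at least 1 library, 30 in the 8-library fit (where 7 more were not tested), 12 with the replicate block, 7 by DESeq2, 3 with no filter and 19 against controls 3 to 5, where 6 others gained one. With the replicate number as a block 6149 genes were called, and no named gene gained a call; type 2 cell genes called lower went from 2 to 5 and S-phase genes called higher from 3 to 12. Deviations of same-numbered epithelial and control libraries correlated at 0.0469, -0.0698 and 0.126, and those of differently numbered ones at -0.0874 to 0.13. With only 3 same-numbered pairs these values cannot decide whether the numbers pair the libraries. Depth limits genes under about 1 CPM.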

Other observations

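Genes of amino acid and one-carbon supply were uneven among the epithelial libraries. Asns, which makes asparagine, was at 11.6, 9.88, 8.9, 15 and 11.1 CPM in controls and 39.3, 20.9 and 44 CPM in epithelial lungs (log2 fold 1.62 ± 0.19 (SE), adjusted p = 1.2e-07), and the mitochondrial folate enzyme gene Mthfd2 was at 4.82 to 8.4 CPM and 26.8, 7.89 and 28.2 CPM (log2 fold 1.67 ± 0.24 (SE), adjusted p = 4.0e-06). Library 2 was the lowest epithelial library for both and within the control range for Mthfd2. Phgdh, the entry enzyme of serine synthesis, rose by 1.1 on the log2 scale without overlap. Chac1 rose by 1.31 on the log2 scale but did not pass without epithelial library 3 (adjusted p = 0.098). Of 19 stress genes 6 were higher and 3 lower (9 and 2 against controls 3 to 5), with 0 lower without epithelial library 1 or 3 and 1 without control 1 or 2. Of 14 serine and one-carbon genes 3 were higher and 2 lower (3 and 2 against controls 3 to 5), near the 18% and 15.2% over all genes. The heat shock genes Hspa1a and Hspa1b, called lower, were at 20.9 and 20.2 CPM and 27 and 27.2 CPM in controls 1 and 2 and under 4 CPM in the other 6 libraries, and did not pass against controls 3 to 5.

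Of 12 mesothelial genes 6 were lower and 1 higher (6 and 1 against controls 3 to 5). Lrrn4 was at 16.4, 21, 18.4, 11.3 and 12.1 CPM in controls and 7.5, 6.03 and 3.86 CPM in epithelial lungs (log2 fold -1.44 ± 0.32 (SE), adjusted p = 9.4e-04). Bnc1 (log2 fold -1.01) did not pass without epithelial library 2 or control 5, nor Upk3b (-0.78) without epithelial library 3. The 1 member called higher, Krt19, is also a keratin of the lung epithelium. In the microRNA processing list 4 of 16 genes were higher and 4 lower, beside 18% and 15.2% over all genes. Against controls 3 to 5 the counts were 3 and 4. The number lower was 1 without epithelial library 1 and 2 without library 3. Dicer1, which cuts microRNA precursors, was at 86.8 to 107 CPM in controls and 157, 118 and 159.6 CPM in epithelial lungs (log2 fold 0.59 ± 0.10 (SE), adjusted p = 3.9e-05), and Prkra, a partner protein of Dicer, fell by 0.71, with epithelial library 2 within the control range. Uchl1, a neuroendocrine marker, was at 5.17 to 8.63 CPM in controls and 19.7, 24.4 and 31.2 CPM in epithelial lungs (log2 fold 1.73 ± 0.23 (SE), adjusted p = 8.1e-07). In the neuroendocrine list 2 of 12 genes passed upward, beside 18% over all genes.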
